A study of Homo sapiens with 12 samples.

Results

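LMO2 encodes a LIM-only protein, a nuclear bridging factor best known from blood and endothelial cells, and its transcript was among the largest rises in senescent EndoC-βH3 cells. The set described here comprises 10 genes of 35337 rows in the table: the 4 LIM-only genes LMO1, LMO2, LMO3 and LMO4, the LIM-binding scaffolds LDB1 and LDB2, the scaffold cofactor SSBP3, and the basic helix-loop-helix (bHLH) factors TAL1, LYL1 and TCF3. LMO2 was chosen by its rise in the senescent cells, so its difference between the groups is given as a description without a test. The other 9 genes were added by symbol, as known partners or relatives of LMO2, with results of these data already known. Of the 10 genes, 8 passed the filter on low values (on average 5 or more normalised reads over all samples) and were among the 13847 genes tested, and LDB2 and TAL1 were not.

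LIM-only proteins carry a pair of LIM zinc-finger domains and little else, and they do not bind DNA themselves. LDB1 dimerises and holds LIM domains through a short interaction region, while SSBP proteins bind LDB1 and protect it from degradation. In blood progenitors LMO2 bridges LDB1 to TAL1 or LYL1 paired with an E protein such as TCF3 and to a GATA factor, so that the assembly binds paired E-box and GATA sites. In beta cells LDB1 works with the LIM-homeodomain factor ISL1 and with SSBP3 at genes of beta-cell maturation, and LIM-only proteins can compete with LIM-homeodomain proteins for LDB1.

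EndoC-βH3 is a single human line derived from fetal pancreas, which grows because it carries hTERT and SV40 large T antigen, flanked so that a tamoxifen-activated Cre (CreER) can excise both. The 6 senescent samples received 4-hydroxytamoxifen (4-OHT) for 3 weeks, and the 6 non-senescent samples were untreated controls that kept the transgenes. Every senescent sample thus had both the drug and the excision, and their effects cannot be told apart. The labels give no separate origin for the replicates, so p-values measure the spread between these samples, which may be technical. The question was which genes differ between proliferating and senescent beta-like cells.

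RNA was read at the 3′ end of transcripts by CEL-seq2. Sample titles carry the letters A and B, treated here as batches, with 2 samples per group in A and 4 per group in B. Batch A had 8873569 to 17106776 reads per library and batch B had 4672924 to 7063264, so low genes had smaller counting error in A. A count of 3 reads corresponded to 1.35 to 2.38 normalised reads in A and to 3.15 to 4.52 in B, for counting error alone. All 12 markers on the beta-cell list passed the filter and were tested. INS had 11021 to 34331 normalised reads in the non-senescent samples and 49685 to 185510 in the senescent samples. The hormone SST, which marks delta cells, was also abundant, with 1345181 reads against 137337 of INS in the non-senescent libraries. In senescent samples mean normalised SST and INS were 117540 and 176730 in batch A and 134260 and 60953 in batch B. The islet genes SLC2A2 and GLP1R, on another list, had 3 and 2 reads in non-senescent libraries and 15 and 1 in senescent libraries.

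The sequences upstream of 3 members are shown because LMO1 and LMO3 were called higher and LDB1 moved in opposite directions in the batches. LMO2 was also called higher, but the promoter sequences used here held no window for it. Each sequence shown is the 250 bases before a RefSeq start site on GRCh38.p14, minus strand, from 5′ to 3′. Each overlaps no annotated exon of the 10 genes, and exons of other genes were not checked. Capitals mark matches, on either strand, to the E-box CANNTG bound by bHLH pairs, to the GATA motif (GATA with A or T before it and A or G after it), and to the homeodomain motif TAATTA. The LMO1 window is chr11:8268788-8269037, that of LMO3 is chr12:16608215-16608464 and that of LDB1 is chr10:102115003-102115252.
LMO1: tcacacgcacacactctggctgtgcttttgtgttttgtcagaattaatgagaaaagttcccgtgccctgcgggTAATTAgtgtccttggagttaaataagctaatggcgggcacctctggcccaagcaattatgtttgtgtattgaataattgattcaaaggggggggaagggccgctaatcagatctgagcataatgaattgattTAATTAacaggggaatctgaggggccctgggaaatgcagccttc
LMO3: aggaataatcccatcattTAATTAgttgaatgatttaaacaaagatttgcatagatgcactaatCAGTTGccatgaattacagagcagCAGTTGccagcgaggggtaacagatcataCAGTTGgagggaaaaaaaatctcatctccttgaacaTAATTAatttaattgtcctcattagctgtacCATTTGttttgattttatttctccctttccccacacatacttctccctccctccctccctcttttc
LDB1: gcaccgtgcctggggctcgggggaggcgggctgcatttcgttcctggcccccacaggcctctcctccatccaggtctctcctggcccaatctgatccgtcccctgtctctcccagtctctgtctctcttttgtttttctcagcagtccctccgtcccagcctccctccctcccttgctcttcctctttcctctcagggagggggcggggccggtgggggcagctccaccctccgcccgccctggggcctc

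The LMO1 window held 2 TAATTA matches and no E-box, the LMO3 window shown held 2 TAATTA matches and 4 E-boxes, and the LDB1 window held no match to any of the motifs. LMO3 has 4 further RefSeq windows, each overlapping an exon, which held 0 TAATTA matches, and 2 of them held no E-box. Among 35116 promoter windows of this length, 4.35% had at least 1 TAATTA, 61.8% an E-box and 22.3% a GATA motif. The motifs were chosen after the expression values were seen, and TAATTA after the sequences were read. The matches describe letters only and are not evidence of binding.

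LMO2 was low in every non-senescent sample and high in every senescent sample. Its normalised read counts were 21.7 and 24.6 in non-senescent replicates A1 and A2 and 13.6, 13.8, 16.1 and 8.70 in B1 to B4. In the senescent samples they were 343 and 359 in A1 and A2 and 239, 267, 298 and 245 in B1 to B4. The groups did not overlap in either batch, and the lowest senescent value lay far above the highest non-senescent one. The order of the levels was senescent A, senescent B, non-senescent A and non-senescent B, with no overlap between neighbours in that order. The means were 16.4 ± 5.83 and 292 ± 50.5 (SD, n = 6). The groups differed by 4.13 on the log2 scale (SE 0.16), or 17.5-fold, on the log2(value + 1) scale that understates changes of low genes. The batches gave 3.87 and 4.25, and the difference between them of 0.39 on the log2 scale did not pass (limma interaction, adjusted p = 0.632). Ranked by log2 fold change LMO2 stood at 5 of 13847 genes tested, a rank that belongs to how it was selected. In RNA from whole cultures, more cells expressing LMO2 and more LMO2 RNA per cell cannot be told apart.

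**Figure D1:**
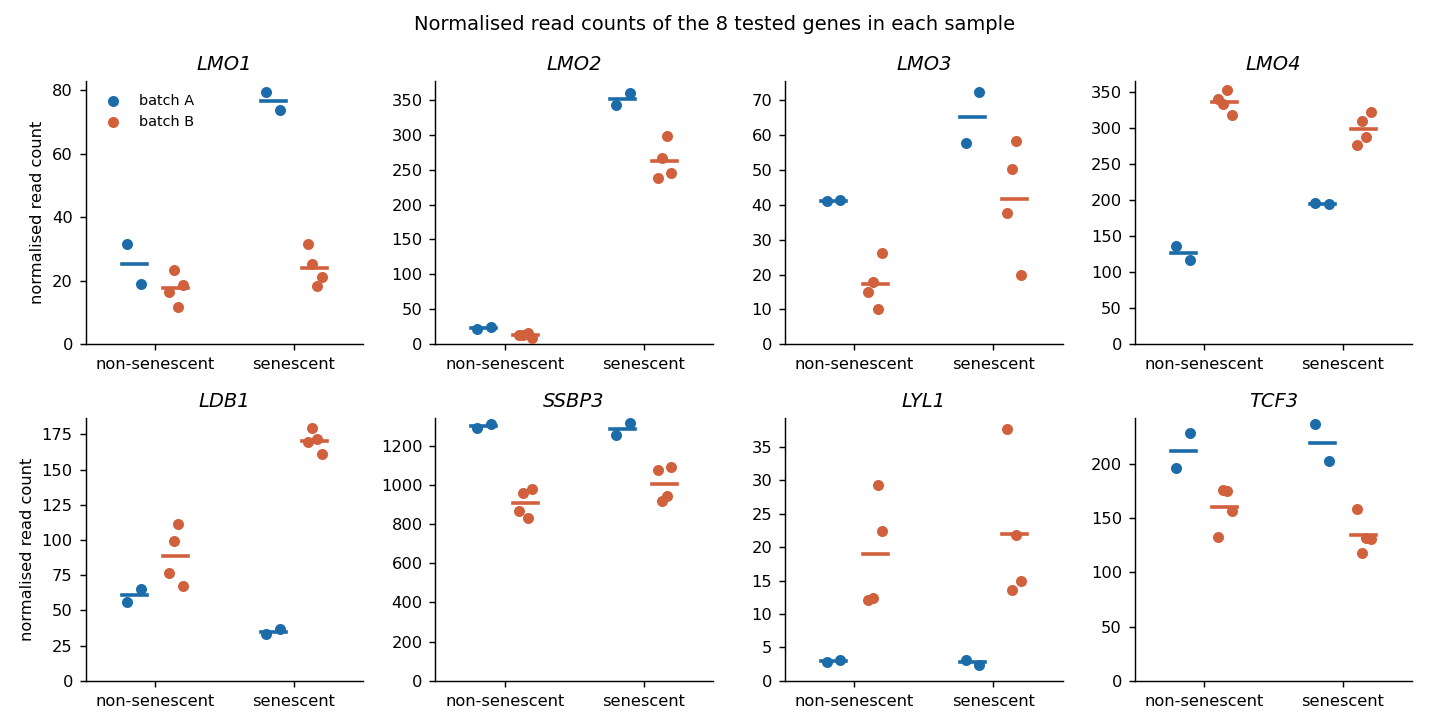
Normalised read counts (y axes, linear from 0, one scale per gene) of the 8 tested genes in the 6 non-senescent and 6 senescent samples. Points are samples, blue for batch A and orange for batch B, and short lines are batch means. LMO2 separates the groups in both batches, and LDB1 separates them in opposite directions. LMO4, LYL1, SSBP3 and TCF3 differ more between batches than between groups, as does LMO3 when batches are compared in non-senescent samples.

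LMO2 lies on the minus strand of chromosome 11 from 33858576 to 33892076 (GRCh38). Its 2 coding transcripts in the annotation start 22260 bases apart and share 1 end, so 3′ reads do not tell which start was used. The body of LMO2 overlaps a long non-coding RNA gene on the opposite strand, for which no counts were found. Its part in the LMO2 reads was not tested. The nearest tested gene at lower coordinates, FBXO3, an F-box subunit of ubiquitin ligases 84033 bases away, rose by 0.70 (SE 0.11, adjusted p = 8.9e-05). CAPRIN1, an RNA-binding protein gene 159655 bases away on the other side, differed by 0.31 (SE 0.07, adjusted p = 0.0021), below the fold limit of 1.5. Within 500 kb of LMO2, 4 of 6 tested genes were called higher and 0 lower, against 11.6% and 11.8% of all genes tested. They were KIAA1549L (1.87), the complement inhibitor gene CD59 (1.18), FBXO3 and ABTB2 (0.84), on the log2 scale, and the window was set after LMO2 was known to rise. KIAA1549L had a mean of 7.46 normalised reads, near the filter of 5, and ABTB2 had an adjusted p of 0.063 (limma).

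Among its LIM-only relatives, LMO1 and LMO3 rose, with smaller fold changes than LMO2, and LMO4 did not pass the test. Together with LMO2, 3 of the 8 tested members were called higher and 0 lower under the limits used here, an adjusted p below 0.1 with a change of more than 1.5-fold. Of all genes tested, 11.6% were called higher, and since LMO2 was selected on this contrast and the rest with results known, nothing is read from the count. LMO2 was the member whose groups did not overlap and moved in the same direction in both batches, as 23.8% of all genes did.

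LMO1, a nervous-system LIM-only gene that is also activated in T-cell leukaemia, separated the groups in batch A and overlapped between them in batch B. It had 31.7 and 19.1 normalised reads in the non-senescent A samples and 79.5 and 73.7 in the senescent A samples. In batch B the non-senescent values were 16.6, 23.4, 11.7 and 18.6, and the senescent values were 31.5, 25.2, 18.3 and 21.2. Over both batches LMO1 rose by 0.83 on the log2 scale (SE 0.26, adjusted p = 0.0182), from 20.2 ± 6.80 to 41.6 ± 27.5 (SD, n = 6). Batch A gave 1.60 (adjusted p = 0.0105) and batch B gave 0.44 (adjusted p = 0.233), and their difference of -1.15 did not pass (adjusted p = 0.258). The call was lost in batch B alone and, at an adjusted p of 0.198, without the batch term.

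LMO3, a LIM-only gene of the developing brain, was higher in senescent samples of both batches, with overlap in B. Its values were 41.1 and 41.3 in non-senescent A and 57.9 and 72.5 in senescent A. In batch B they were 15.1, 17.9, 10.2 and 26.1 in non-senescent and 37.6, 50.4, 58.4 and 19.9 in senescent samples, where the last, replicate B4, fell within the non-senescent range. LMO3 rose by 1.00 (SE 0.27, adjusted p = 0.00707), from 25.3 ± 13.4 to 49.4 ± 18.4 (SD, n = 6). Without the batch term the adjusted p was 0.112. The body of LMO3 overlaps MGST1 on the opposite strand, which had 43 and 40 reads in the non-senescent and senescent libraries, fewer than the 177 and 395 of LMO3. Whether counting used strand is not stated in the sources used here.

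LMO4, the broadly expressed member that binds BRCA1 and RBBP8 as well as LDB1, had the most reads of the family in non-senescent samples. It had 137 and 117 normalised reads in non-senescent A, 196 and 195 in senescent A, 340, 333, 354 and 318 in non-senescent B and 276, 311, 287 and 323 in senescent B. The A groups were apart, with senescent higher, and the B groups overlapped. The overall difference was 0.10 (SE 0.12, adjusted p = 0.583), with a 95% interval from -0.17 to 0.36. The response differed between the batches, 0.62 in A against -0.17 in B (difference -0.79, limma interaction adjusted p = 0.0218). The interaction was called for 4.21% of all genes, and for 2 of the 8 members, LMO4 and LDB1. For LMO4 it was lost when non-senescent A2, senescent A1 or senescent A2 was left out (adjusted p = 0.163, 0.113 and 0.113).

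**Figure D2:**
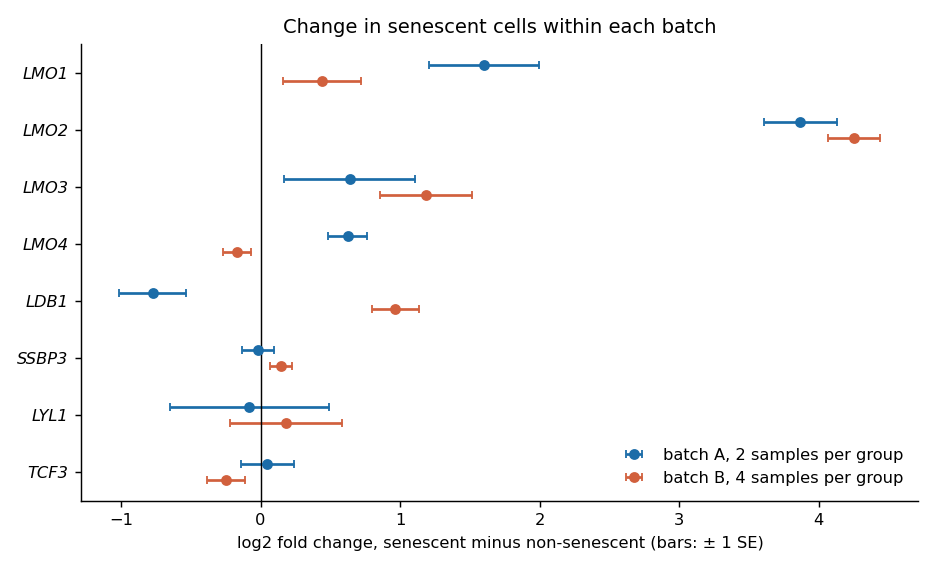
Log2 fold change of each tested member (x axis, senescent minus non-senescent, log2 of normalised reads plus 1) within batch A (blue, 2 samples per group) and batch B (orange, 4 per group), with bars of ± 1 SE. LMO2 lies near 4 in both, LMO4 and LDB1 change sign between the batches, and SSBP3, LYL1 and TCF3 lie near 0.

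The make-up of LMO reads in a library followed from these levels. LMO2 gave 9.38% to 12.2% of the reads of the 4 genes in non-senescent A and 2.34% to 4.10% in non-senescent B. In senescent samples its share was 50.7% to 51.3% in A and 40.3% to 45.0% in B. The share of LMO4 went from 57.9% to 59.1% in non-senescent A down to 27.8% to 29.0% in senescent A, and from 85.6% to 90.3% in non-senescent B down to 43.4% to 53.0% in senescent B. The summed normalised reads of the family were 202 to 392 in non-senescent and 584 to 701 in senescent samples. These are shares of 3′ reads, and since LMO2 was selected for its rise they are a description.

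**Figure D3:**
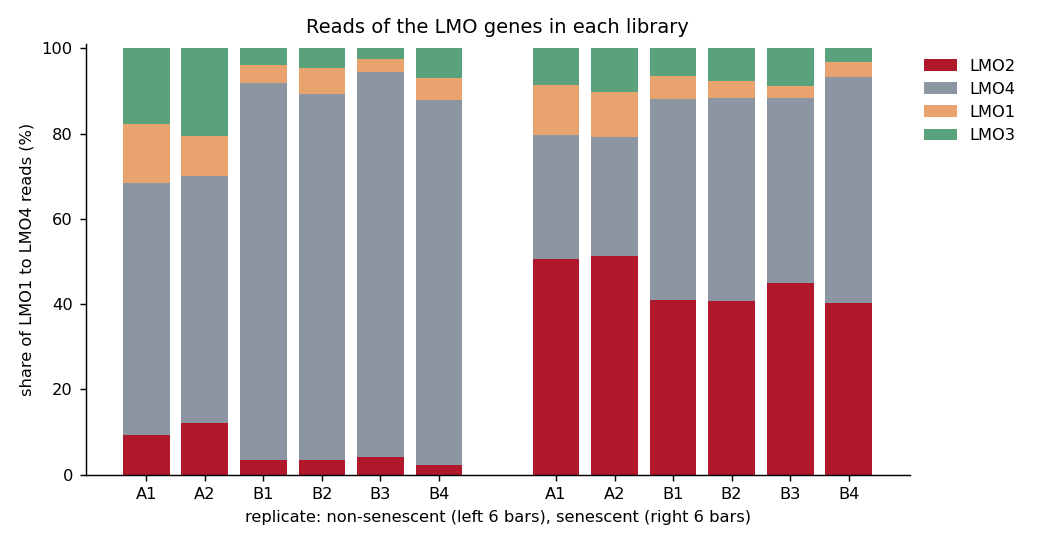
Share (%) of the reads of LMO1, LMO2, LMO3 and LMO4 that came from each gene, 1 bar per library, with the 6 non-senescent libraries on the left and the 6 senescent on the right. LMO2 (red) takes 2.34% to 12.2% on the left and 40.3% to 51.3% on the right, and LMO4 (grey) takes the most reads in every non-senescent library.

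LDB1, the scaffold that binds LMO2 and ISL1, moved in opposite directions in the batches. In batch A it fell from 56.1 and 65.2 normalised reads to 33.2 and 36.8, and in batch B it rose from 76.8, 99.1, 111 and 67.1 to 170, 179, 172 and 161. The groups did not overlap in either batch, a pattern of opposite directions that 1.85% of all genes showed. The log2 fold changes were -0.77 in A and 0.96 in B (adjusted p = 0.0365 and 0.000326), a difference of 1.74 (SE 0.29, limma interaction adjusted p = 0.00484). Averaged over both, LDB1 differed by 0.38 (SE 0.24, adjusted p = 0.226), with a 95% interval from -0.12 to 0.89. The interaction passed with any 1 library left out, with adjusted p from 0.0023 to 0.048.

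LMO2 reads per LDB1 read therefore varied with batch among senescent samples. The ratio was 0.1296 to 0.386 in the non-senescent samples, 9.75 to 10.3 in senescent A and 1.41 to 1.73 in senescent B. Reads of all 4 LMO genes per LDB1 read were 3.10 to 5.54 in non-senescent samples, 19.0 to 20.3 in senescent A and 3.44 to 3.85 in senescent B. Within batch A the non-senescent family ratio was 3.10 to 4.12, below both senescent values. Within batch B it was 3.53 to 5.54, which overlapped the senescent values.

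SSBP3, the single-stranded DNA-binding protein that stabilises LDB1 in beta cells, was abundant and close to level. It had 1289 and 1309 normalised reads in non-senescent A, 1254 and 1318 in senescent A, 831 to 978 in non-senescent B (median 912) and 916 to 1090 in senescent B (median 1009). The groups overlapped in both batches. The difference was 0.09 (SE 0.07, adjusted p = 0.336), with a 95% interval from -0.06 to 0.24, and it turned to -0.01 when libraries were scaled to the same total. The 3′ end of SSBP3 meets that of MRPL37 on the opposite strand, a mitochondrial ribosome gene that fell by 1.18 (adjusted p = 4.5e-08), so reads at the shared end are uncertain. LDB2, the second scaffold gene, had 1 read in all 12 libraries.

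The bHLH partners of LMO2 in blood were scarce or did not pass the test. TAL1 had 2 reads in non-senescent B1, 1 in non-senescent B3 and 0 in every senescent library, which is at the floor of 3 reads, so no fold is given. LYL1, its close relative, had 2.78 and 3.18 normalised reads in non-senescent A, 3.14 and 2.42 in senescent A, 12.05, 12.4, 29.2 and 22.4 in non-senescent B and 37.6, 13.6, 21.7 and 14.9 in senescent B. The groups overlapped in both batches, and the difference was 0.10 (SE 0.33, adjusted p = 0.847), with a 95% interval from -0.59 to 0.78. TCF3, the E protein E2A, had 196 and 228 normalised reads in non-senescent A, 237 and 202 in senescent A, 133 to 176 in non-senescent B (median 166) and 118 to 159 in senescent B (median 131). It differed by -0.15 (SE 0.12, adjusted p = 0.337), with a 95% interval from -0.39 to 0.10. A fold change over 1.5 in either direction lies outside the intervals of TCF3 and SSBP3.

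In non-senescent samples alone, 4 of the 8 tested members differed between batch B and batch A by both limits. LMO4 was higher in B by 1.40 on the log2 scale and LYL1 by 2.24 (adjusted p = 9.7e-08 and 0.0012), while LMO2 was lower by 0.81 and LMO3 by 1.28 (adjusted p = 0.0069 and 0.014). These 4 members passed both limits, as did 49.8% of all genes. SSBP3, LDB1 and TCF3 passed the adjusted p limit but not the fold limit. Their differences, B minus A, were -0.52, 0.51 and -0.41 (limma adjusted p = 0.00036, 0.045 and 0.046). The comparison was added after the data were seen, and nothing in the sources used here says what the letters A and B stand for.

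Among the LIM-homeodomain factors, which compete with LIM-only proteins for LDB1, 3 of 12 listed genes were tested, 1 was called higher and 0 lower, with a median of 0.34 against 0.01 for all genes. For this and each list below, the shares called over all genes tested were 11.6% higher and 11.8% lower. LHX4, a factor of pituitary and motor neuron development, rose by 2.92 (SE 0.34, adjusted p = 3.1e-06). Its normalised reads went from 4.13 to 9.45 (median 6.87) in non-senescent samples to 24.2 to 112 (median 70.1) in senescent samples, without overlap in either batch. Its rise was 1.43 in A and 3.67 in B, and the interaction passed (adjusted p = 0.023). In non-senescent B, LHX4 had 4.13 to 7.53 normalised reads, near the floor of 3 reads, so the size of its rise there is uncertain. ISL1, the LDB1 partner in islets, went from 1606 ± 76.4 to 2032 ± 167 (SD, n = 6). The 0.34 difference (SE 0.07, adjusted p = 0.00079) was below the fold limit, and its groups did not overlap in either batch. LMX1B differed by -0.50 (adjusted p = 0.029), below the fold limit.

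Of the 3 genes that act with LDB1 or on its stability, 1 was called higher and 0 lower (median 0.57). SSBP2, a relative of SSBP3, rose by 0.71 (SE 0.18, adjusted p = 0.0044). Batch A gave 1.47 and batch B 0.33, with a difference between batches that passed (adjusted p = 0.035). The call was lost in batch B alone and, at 0.57, without senescent replicate A1. RLIM, the ubiquitin ligase that degrades LIM cofactors, differed by 0.57 (SE 0.15, adjusted p = 0.0058), just under the fold limit.

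Of 6 other E proteins and ID inhibitors, which bind E proteins and keep them off DNA, 5 were tested, with 1 called higher and 2 lower (median -0.49). ID2 fell by 0.83 (SE 0.10, adjusted p = 2.4e-06), from 356 ± 58.9 to 198 ± 22.3 normalised reads (SD, n = 6). ID4 fell by 0.97 (SE 0.19, adjusted p = 0.00049), and its groups, like those of ID2, did not overlap in either batch. In batch A alone the call of ID4 was lost (-0.55, adjusted p = 0.113). ID1 rose by 1.22 (SE 0.31, adjusted p = 0.0048), with overlap in batch B, and lost its call in batch A alone and without the batch term. The E protein genes TCF12 and TCF4 differed by -0.49 and -0.22 (adjusted p = 0.0028 and 0.13), both below the fold limit. Of 8 tissue-restricted bHLH genes, 3 were tested and 0 were called. NEUROD1, the E-protein partner in beta cells, differed by -0.22 (adjusted p = 0.0077).

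GATA factors and their corepressors comprised 13 listed genes, of which 7 were tested, 2 called higher and 0 lower (median 0.17). CBFA2T3 (ETO2), the corepressor found in LMO2, TAL1 and LDB1 complexes of blood cells, rose by 2.94 (SE 0.36, adjusted p = 5.9e-06). It had 1.51 to 13.8 normalised reads (median 9.97) in non-senescent samples and 38.0 to 81.0 (median 73.7) in senescent samples, apart in both batches. The lowest of these values, in batch B, lay below the floor of 3 reads. ZFPM1 (FOG1), the GATA1 cofactor, rose by 0.96 (SE 0.17, adjusted p = 0.00022), from 52.8 ± 13.1 to 103 ± 24.5 (SD, n = 6). GATA1, GATA2 and GATA5 had 0 reads in all 12 libraries. GATA4 was the GATA gene with many reads, with totals of 5035 (non-senescent) and 6933 (senescent), and differed by 0.17 (SE 0.08, adjusted p = 0.12).

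Of 11 blood genes known to be bound by the LMO2 complex, 3 were tested, 0 were called higher and 1 lower (median -0.44), and 5 had 0 reads in every library. The gene called lower was HHEX, a homeobox gene of blood and endodermal tissues, at -0.74 (SE 0.13, adjusted p = 0.00021), a call lost without the batch term. SLC4A1 and KIT also had many reads, with 1936 and 1855 in the non-senescent libraries and 1894 and 1721 in the senescent libraries. They differed by -0.36 and -0.44 (limma adjusted p = 0.18 and 0.021), both below the fold limit. Of 12 haematopoietic and endothelial markers 5 were tested, 0 were called higher (11.6% of all genes tested) and 1 lower (11.8% of all). The lower one, the leukocyte gene PTPRC, fell by 1.58 (adjusted p = 0.0072), a call lost in batch A alone. Their summed normalised reads were 46.7 to 111 in non-senescent and 38.7 to 105 in senescent samples. PECAM1, TIE1, EMCN and CD68 were tested and not called. They had 47, 115, 78 and 126 reads in the non-senescent libraries and 49, 128, 108 and 157 in the senescent libraries. VWF, TEK and CD3E had 0 reads in every library and the endothelial cadherin CDH5 had 2 reads in all, none of them senescent.

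Of 5 islet genes bound by LDB1 and ISL1, 3 were tested, 2 were called higher (11.6% of all genes tested) and 0 lower (11.8%), with a median of 0.59. MAFA, a regulator of mature beta cells, rose by 2.36 (SE 0.25, adjusted p = 1.2e-06), from 15.6 ± 8.70 to 79.9 ± 25.3 normalised reads (SD, n = 6). PDX1 rose by 0.59 (SE 0.07, adjusted p = 2.5e-06), so close to the fold limit that 11 of 27 alternative settings put it below. Both are also on the beta-cell marker list, where, against the same shares, 5 of 12 were higher, including INS (2.23) and IAPP (1.87), and 1, UCN3, was lower (-0.63). Of 13 markers of other pancreatic cells 6 were tested, 1 was called higher and 3 lower, with CPA1, an acinar enzyme, at 2.25, KRT19, a duct keratin, at -1.35, GCG at -1.30 and SST at -0.64. GCG lost its call without the batch term (adjusted p = 0.103), and its response differed between the batches, at -2.36 in A and -0.77 in B (interaction adjusted p = 6.8e-06). SST lost its call in batch B alone (-0.35) and without any 1 of the 4 batch A libraries (-0.58 to -0.56). The response of SST also differed between the batches, at -1.24 in A and -0.35 in B (limma interaction adjusted p = 0.00075). The part of these markers in the results on LMO2 was not tested.

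All 3 listed partners of LMO4 were tested, and 2 were called lower (11.8% of all genes tested) and 0 higher (11.6%), with a median of -1.48. BRCA1, the DNA repair gene, fell by 1.93 (SE 0.19, adjusted p = 3.5e-07), from 421 ± 44.1 to 118 ± 52.6 normalised reads (SD, n = 6). RBBP8 (CtIP), which works with BRCA1 in DNA end resection, fell by 1.48 (SE 0.15, adjusted p = 6.9e-07), and both were apart in both batches. Of 12 other small LIM-domain genes 6 were tested, 1 was called higher and 1 lower, and their median was -0.02. CRIP2 rose by 2.14 (SE 0.20, adjusted p = 2.1e-07) and CSRP2 fell by 1.23 (SE 0.26, adjusted p = 0.0013), the latter a call lost in batch A alone, at -0.32.

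**Figure D4:**
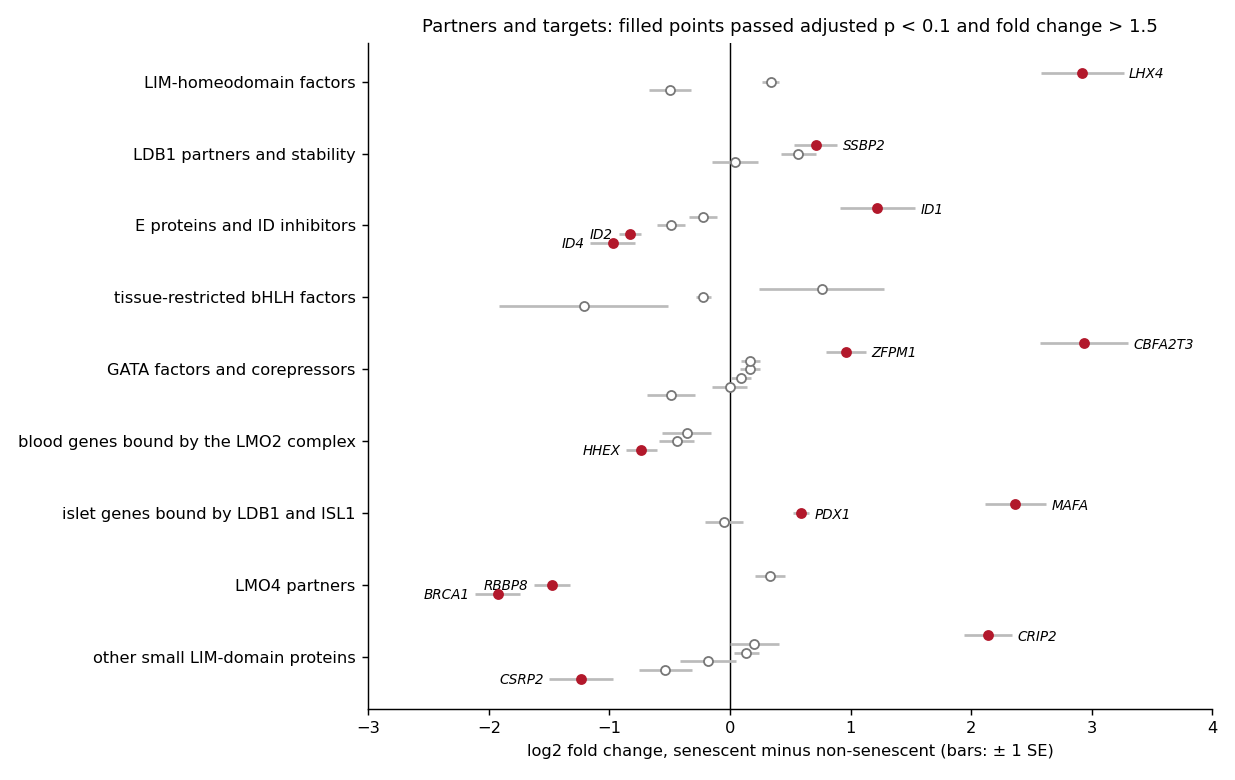
Log2 fold change (x axis, senescent minus non-senescent) of every tested gene on 9 lists of partners and targets, with bars of ± 1 SE. Filled red points passed both limits (adjusted p below 0.1, change of more than 1.5-fold). LHX4, CBFA2T3, MAFA and CRIP2 lie above 2 and BRCA1 is the lowest at -1.93.

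The profiles most like that of LMO2 were those of FAM92B, KCNJ16, LCN10, TSPEAR, SLC30A1, IGFALS, IGF2, HIST1H2AC, CDKN1A and PDZD3. Likeness was the root mean square difference of log2 values over the 12 samples after each gene's mean in each batch was subtracted, which was 0.408 for FAM92B and 0.662 for PDZD3 against a median of 2.09 over 13846 genes. The most similar, FAM92B, a cilium gene, had means of 2.25 and 67.1 normalised reads and changed by 3.98 in A and 4.45 in B. The non-senescent means of FAM92B, TSPEAR, IGFALS and PDZD3 lay below the floor of 3 reads in batch B. The sizes of their changes are therefore uncertain. KCNJ16, a potassium channel gene, changed by 3.26 and 4.05, the zinc exporter gene SLC30A1 by 2.79 and 3.90, and the growth factor gene IGF2 by 2.79 and 3.09. CDKN1A, the p53 target that encodes p21, changed by 2.18 in A and 4.78 in B. The list holds genes with large rises in both batches because the measure follows the size of the change, and none of the other 9 members was on it.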

How the data were processed

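RNA of 12 EndoC-βH3 samples was sequenced by CEL-seq2. The authors used Cutadapt for trimming, Salmon 0.13.1 with GRCh38 for quantification and DESeq2, corrected for batch, for the comparison. The annotation, strand setting and use of molecular identifiers are not given in the sources used here. The deposited values are a signal, reads divided by 1 DESeq2 size factor per sample, called normalised read counts here. All of 196021 values above 0 were whole reads (tolerance 0.01 reads). The authors' mean, log2 fold change with its error, test statistic (a score) and p-values were also deposited and were not used. Groups, batch letters and replicates came from the labels.

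The test was limma 3.58.1 (R 4.3.3, intensity trend) on log2(normalised read count + 1), with batch and group, for 13847 genes with a mean of at least 5 over all samples. Calls required a change of more than 1.5-fold and an adjusted p (Benjamini-Hochberg) below 0.1. The interaction of batch and group required the latter only. Intervals are 95%. "Apart" means that the values of the groups did not overlap. Alternatives were edgeR 4.0.16 (quasi-likelihood) and DESeq2 1.42.0 on whole reads, other pseudocounts, filters, scalings and left-out libraries. The fit was tested on simulated data. Promoter sequences came from RefSeq (GRCh38.p14) and positions from GENCODE on GRCh38.

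The members and lists were chosen with earlier results of these data known. The text names all members, up to 4 called genes per list with the largest change, ISL1, the neighbours of LMO2 and the 10 profiles nearest to LMO2. Other list genes, genes within 500 kb and MRPL37 and MGST1, which overlap members, were named after their values were seen.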

Additional observations from a re-analysis of the deposited data

Results flagged for a closer look

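LMO4 and LDB1 responded to senescence differently in the batches, by the limma interaction test. The response of LMO4 in batch B minus that in batch A was -0.79 on the log2 scale (adjusted p = 0.0218), and that of LDB1 was 1.74 (adjusted p = 0.00484). What set the batches apart is not given in the sources used here, and its part in these values was not tested. LDB2 in non-senescent replicate B3 stood apart from all other samples of its group, and of its group within batch B, at 1.46 normalised reads against 0. That value is 1 read. Of 36 groups examined in this way, about 1 in 20 would stand out by chance. That rate does not hold for LDB2, since a lone read among zeros always stands out, and both of its flags are the same read.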

How the results depend on the processing

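In 12 fits that left out 1 library each and 15 other alternatives, LMO2 kept its direction, with log2 fold changes of 3.64 to 4.25. Since LMO2 was selected for its rise in these same samples, that range is a description and not support for the rise. Without the batch term 2143 genes were called instead of 3237, and 1 member, LMO2, instead of 3; batch A alone called 5 members. With a replicate block 3211 genes and 3 members were called, and no member's call changed. No pairing by replicate number was seen (correlations of deviations from -0.10 to 0.0078, and 0 of 4 senescent B samples were nearest to their own number). The check cannot exclude pairing, and with 2 samples per group both pairs of batch A give the same value by construction. Scaling to the same total moved the median of all genes to -0.09 and the calls from 1605 higher and 1632 lower to 1226 and 2090. It turned LMO4 to -0.011 and SSBP3 to -0.014. Batch A alone turned LDB1 to -0.77, LYL1 to -0.079, TCF3 to 0.048 and SSBP3 to -0.015, and batch B alone turned LMO4 to -0.17. LYL1 ranged from -0.094 to 0.23 with 1 library left out, at -0.024 without non-senescent B1, -0.016 without non-senescent B2 and -0.094 without senescent B1, and its interaction from -0.024, without senescent B1, to 0.49. Genes with an interaction ranged from 169 to 743 with 1 library left out, falling below 583 by over 1.5 times without non-senescent A1 (261), non-senescent A2 (175), senescent A1 (183) or senescent A2 (169); members ranged from 1 to 2. The cause of these shifts was not tested. The comparison of batches in non-senescent samples was added after seeing the data. TAL1, LDB2 and LYL1 are limited by their few reads.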
